A study of Mus musculus with 13 samples.

Results

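Jejunal epithelium of mice kept on combined breakfast skipping (BSF_C, 3 libraries) was compared with jejunal epithelium of mice kept on lunch skipping (LSF, 3 libraries), gene by gene. The 6 libraries were taken by their labels and are part of a series of 13. The comparison and its gene lists were chosen with earlier results of these data known. Of 21868 gene symbols in the count table, 14300 passed a filter on low counts and were tested, and these held 99.91% of all counts. The labels name BSF_C as the breakfast skipping pattern together with control and say no more, so its feeding hours are not given in the sources used here. LSF mice had food from ZT12 to ZT16 and again from ZT20 to ZT24 for 2 weeks, where ZT, zeitgeber time, counts hours from lights on. Libraries of plain breakfast skipping (BSF, 2 libraries, fed from ZT16 to ZT24) and of dinner skipping (DSF, 2 libraries, fed from ZT12 to ZT20) serve at the end as a description beside the main comparison. These libraries and 3 control libraries also entered the filter on low counts, the scaling of libraries and the estimate of the spread. All mice shared one housing environment, per the labels, while strain, sex, age and the hour at which tissue was taken are not given there. A piece of jejunum was digested with dispase, Liberase and DNase, and live sorting kept EpCAM-positive cells negative for B220, CD3, CD11b and CD45, a gate that removes most leukocytes. The labels call the libraries of a group biological replicates without saying how many mice each came from, and p-values measure the spread between these libraries. RNA was measured in bulk, in which fewer cells of a type and less RNA per cell cannot be told apart.

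The jejunal epithelium is renewed from stem cells at the base of the crypts, and absorptive enterocytes mature as they move up the villus. Enterocytes digest and take up sugars, peptides, amino acids and fat, hold cytochrome P450 enzymes that meet ingested compounds first, and switch on glucose and ketone body synthesis when food is withheld. Both the circadian clock and the hours of feeding are known to set the level of many of these transcripts over the day.

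The 6 libraries held between 7592112 and 8385260 counts each, with ranges of 7793296 to 8269342 in BSF_C and 7592112 to 8385260 in LSF. Spearman correlations over genes lay between 0.9944 and 0.9949 for library pairs within a group and between 0.9824 and 0.9839 for pairs across the groups. No pair agreed within sampling noise, as the chi-square per degree of freedom was 1.38 to 1.99 within groups and 11.6 to 12.5 across them. Each library counted as 1 replicate, as labelled, though these values cannot show whether the libraries came from separate mice. The first principal component of the 6 libraries carried 58.4% of the variance and separated the groups. Of 12 epithelial markers, 3 were called higher and 2 lower in BSF_C, all within a narrow range. Epcam, the adhesion molecule used for the sort, had 351 ± 13.7 CPM in BSF_C and 322 ± 7.39 CPM in LSF (SD, n = 3 each) and was not called (log2 fold change 0.12, adjusted p = 0.0691). Cdx2 and Cdh1, the intestinal identity factor and E-cadherin, had log2 fold changes of 0.00 and 0.07 and were not called either, nor were Krt18 (-0.05), Krt20 (0.09), Cldn3 (-0.02) and Cldn7 (-0.04). Krt8 (0.13), Krt19 (0.16) and Fabp1 (0.26) were called higher, and Vil1 (-0.20) and Fabp2 (-0.27) lower. The call of Krt8 was lost under 7 of 16 alternatives, among them all that left out 1 library apart from BSF_C library 3, and that of Krt19 was lost without BSF_C library 1.

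Levels are given as CPM, read counts scaled to library size by trimmed means, and differences as the log2 fold change of BSF_C over LSF with its SE, so a positive value means higher in BSF_C. A single value in parentheses after a gene is its log2 fold change. A gene was called when the Benjamini-Hochberg adjusted p of edgeR's quasi-likelihood test was under 0.05. At that threshold 4670 genes (32.7% of those tested) were called, 2225 higher (15.6%) and 2445 lower (17.1%) in BSF_C. Of these, 760 (5.31% of genes tested) differed by at least 2-fold, 343 higher and 417 lower. The median absolute log2 fold change was 0.207 over all genes tested and 0.424 over called genes, and the biological coefficient of variation was 4.87%, so differences well under 1.5-fold were called for abundant genes. All 3 BSF_C libraries lay on one side of all 3 LSF libraries for 6737 genes (47.1% of those tested), among them 4494 of the called genes. When libraries were scaled by their totals alone, 63.3% of the called genes were higher in BSF_C, against 47.6% with trimmed means. A gene group with about 32.7% of its members called therefore stands at the background. When calls in 1 direction are counted, the background is 15.6% higher or 17.1% lower. These shares are over all genes tested and were not matched to the expression level of any list. A larger share alone therefore does not set a list apart.

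**Figure D1:**
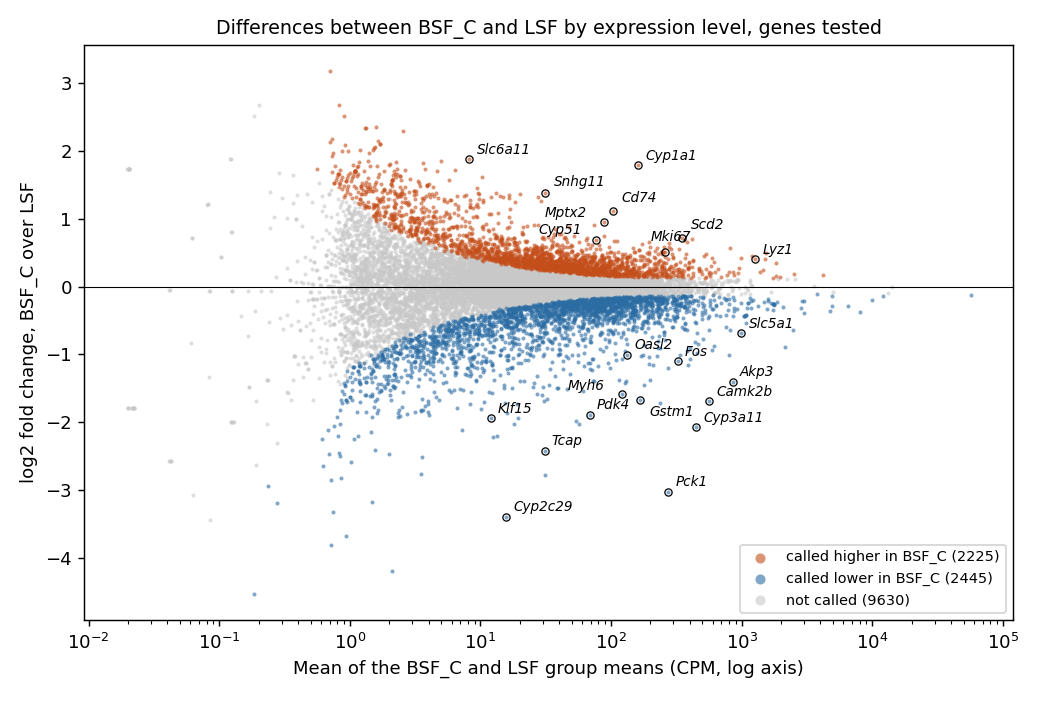
Log2 fold change of BSF_C over LSF (vertical axis) against the mean of both group means in CPM (horizontal log axis) for genes tested, with called genes in colour. The falls of Pck1, Cyp2c29 and Cyp3a11 reach further from 0 than any labelled rise, of which Slc6a11 and Cyp1a1 are the largest.

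Genes of glucose synthesis and fatty acid oxidation were mostly lower in BSF_C. Pck1, the cytosolic phosphoenolpyruvate carboxykinase that commits carbon to gluconeogenesis (chromosome 2, 173153048 to 173159273, GRCm38), had 56.8, 63.6 and 60.4 CPM in the BSF_C libraries, against 492, 483 and 493 CPM in the LSF libraries. The groups were far apart, with a log2 fold change of -3.02 ± 0.061 (adjusted p = 5.8e-42), the smallest p of all genes tested. Of 16 tested genes of gluconeogenesis, 12 were called lower and 0 higher (median log2 fold change -0.32, against 0.01 over all genes tested). They included Glud1, glutamate dehydrogenase (-0.82), Gpt, alanine aminotransferase (-0.54), Creb3l3, a liver and gut transcription factor of fasting (-0.50), and Fbp2, a fructose bisphosphatase (-0.43). G6pc, the glucose-6-phosphatase that releases free glucose, differed by -0.20, a call lost with library totals alone and without BSF_C library 3. Pck2, the mitochondrial counterpart of Pck1, was not called (0.20).

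Of 7 tested ketone body genes, 1 was called lower and 2 higher, 42.9% called beside the background of 32.7%. The higher ones were the monocarboxylate carriers Slc16a1 (0.20) and Slc16a6 (0.19). Pdk4, a kinase that inhibits pyruvate dehydrogenase, had 28.9, 29.7 and 28.8 CPM in the BSF_C libraries, against 106, 111 and 106 CPM in the LSF libraries, without overlap (-1.89 ± 0.085, adjusted p = 1.76e-25). Of 33 tested genes of fatty acid oxidation and targets of the nuclear receptor PPARA, 24 were called lower and 0 higher (median -0.28). Acadl, the long-chain acyl-CoA dehydrogenase, differed by -0.87, Acaa2, a thiolase, by -0.68, and Acot1, an acyl-CoA thioesterase, by -0.65. Cpt1a, which admits fatty acids to the mitochondrion, differed by -0.19, and that call was lost without BSF_C library 2. The PPARA targets Cyp4a10 (-0.02) and Slc25a20 (-0.14) were not called.

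Regulators that respond to insulin and to fasting were also lower, with 12 of 19 tested members called lower and 0 higher (median -0.33). Klf15, a fasting-induced factor of amino acid breakdown, had 4.91, 5.97 and 3.92 CPM in the BSF_C libraries, against 18.6, 18.5 and 19.8 CPM in the LSF libraries (-1.94 ± 0.17, adjusted p = 2.31e-13). Irs2, the insulin receptor substrate that FOXO factors induce, had 60.9, 61.6 and 63.5 CPM in the BSF_C libraries, against 98.5, 108 and 99.1 CPM in the LSF libraries (-0.72), and Insr, the insulin receptor, differed by -0.49. Foxo3 was called lower (-0.36) and Foxo1 was not called (-0.12). Among 15 tested genes of the glucocorticoid receptor and its targets, 8 were called lower and 0 higher (median -0.68). Sgk1, a kinase that raises sodium uptake, had 63.5, 57.9 and 58.3 CPM in the BSF_C libraries, against 134, 137 and 141 CPM in the LSF libraries (-1.20), and Fkbp5, a co-chaperone of the receptor, differed by -0.80. Nr3c1, the receptor itself (0.02), and Tsc22d3, another of its targets (-0.06, adjusted p = 0.511), were not called. Mt2 and Mt1, zinc-binding metallothioneins that glucocorticoids and zinc both induce, were lower, Mt2 with 7.12, 7.96 and 6.12 CPM in the BSF_C libraries, against 28.9, 29.7 and 28.2 CPM in the LSF libraries and Mt1 with a log2 fold change of -1.18. Of the zinc exporters, Slc30a2 (-0.51), Slc30a4 (-0.47) and Slc30a10 (-0.51) were also called lower, while the zinc importer Slc39a4 (-0.06) and the metal-responsive factor Mtf1 (0.03) were not called. Of 11 tested zinc genes 5 were thus lower and 0 higher. The metal response element TGCNCNC occurred in 9 of 10 matched promoters of the list, but also in 44.413% of 32851 promoters.

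**Figure D2:**
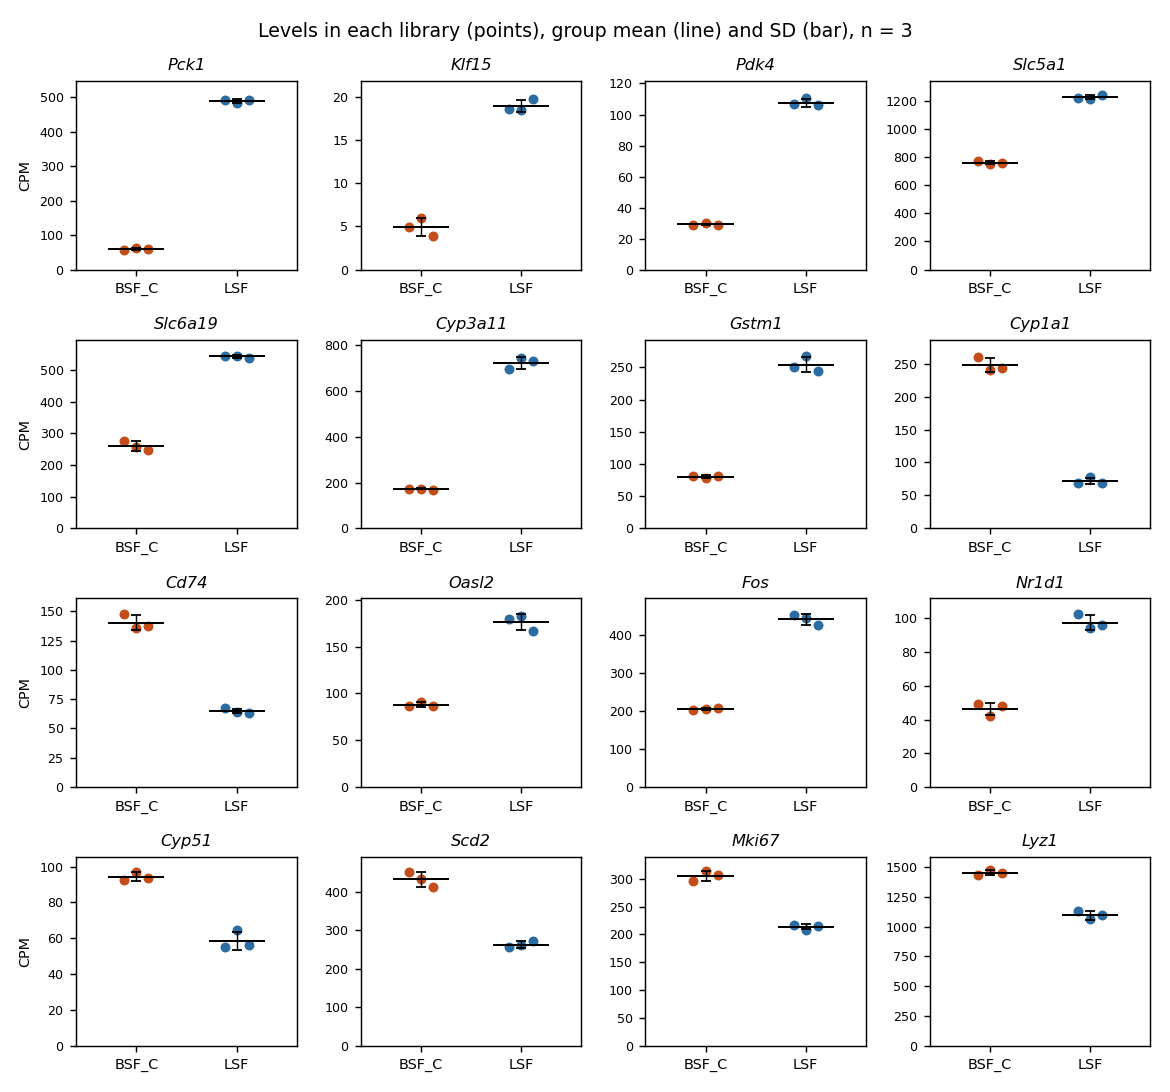
Level of 16 genes in each BSF_C and LSF library in CPM (points), with group mean (line) and SD (bar, n = 3 libraries). In each panel the points of the groups do not overlap, with Pck1, Klf15 and Pdk4 lower and Cyp1a1, Cd74, Cyp51, Scd2, Mki67 and Lyz1 higher in BSF_C.

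Genes for digesting and absorbing nutrients were mostly lower in BSF_C, with fold changes smaller than those of Pck1. Slc5a1, the sodium-glucose cotransporter SGLT1 of the brush border (chromosome 5, 33104219 to 33162870), had 771, 750.1 and 759 CPM in the BSF_C libraries, against 1221, 1217 and 1241 CPM in the LSF libraries (-0.69 ± 0.048, adjusted p = 1.47e-17). Slc2a2, the basolateral glucose transporter GLUT2, differed by -0.63, and Slc2a5, the fructose transporter GLUT5, by -0.54. Among 16 tested genes of carbohydrate digestion and sugar transport, 11 were called lower and 1 higher (median -0.42). The lower ones included the disaccharidases Sis, sucrase-isomaltase (-0.42), Mgam, maltase-glucoamylase (-0.77), Treh, trehalase (-0.41), and Lct, lactase (-0.21). Slc5a4a, a relative of SGLT1 with a near-identical neighbour, had 4.30, 3.86 and 5.02 CPM in the BSF_C libraries, against 19.7, 22.1 and 19.8 CPM in the LSF libraries (-2.22), and Slc2a7, a hexose transporter, had 15, 15.1 and 13.8 CPM in the BSF_C libraries, against 45.5, 47.3 and 39.6 CPM in the LSF libraries (-1.59). Tkfc, triokinase of fructose breakdown, was the 1 member called higher (0.41), and Khk, the ketohexokinase of that pathway, was not called (-0.09).

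Of 16 tested peptidases, 14 were called lower and 0 higher (median -0.47). Tmprss15, enteropeptidase, which activates trypsin, differed by -1.20, Ace, a brush border peptidase, by -0.65, Dpp4, which removes dipeptides from peptide ends, by -0.45, and Anpep, aminopeptidase N, by -0.39. Amino acid and peptide transporters gave 13 lower and 1 higher of 19 tested (median -0.42). Slc6a19, the brush border carrier of neutral amino acids, had 276, 255 and 247 CPM in the BSF_C libraries, against 546, 545 and 538 CPM in the LSF libraries (-1.06 ± 0.053, adjusted p = 8.4e-24). Slc15a1, the peptide transporter PEPT1, had 61.2, 59.2 and 57.4 CPM in the BSF_C libraries, against 134, 128 and 128 CPM in the LSF libraries (-1.13). For both carriers the highest BSF_C library was below the lowest LSF library. Slc7a9, which takes up cystine and dibasic amino acids, differed by -0.82, and its partner Slc3a1 by 0.02, which was not called. The 1 higher call, Slc1a5 (0.18), was lost under 10 of 16 alternatives.

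Lipid absorption and chylomicron genes gave 16 lower and 2 higher of 31 tested (median -0.200). Cd36, a fatty acid receptor, differed by -0.69, Slc27a2, a fatty acid transporter and activating enzyme, by -0.77, Dgat1, which completes triglyceride synthesis, by -0.43, and Mttp and Apob, the transfer protein and the structural protein of chylomicrons, by -0.33 and -0.32. Apoa1, an apolipoprotein of high-density lipoprotein, had 6998 ± 296 CPM in BSF_C and 9111 ± 91 CPM in LSF (SD, n = 3 each) (-0.38), while Apoa4, another apolipoprotein of chylomicrons, was not called (-0.01). Fabp1, a cytosolic fatty acid carrier, was called higher (0.26) and its relative Fabp2 lower (-0.27). Of 11 sterol absorption genes, 6 were called lower and 0 higher. Abca1, which moves cholesterol out of the cell to lipoproteins, had 6.63, 6.79 and 7.10 CPM in the BSF_C libraries, against 22.3, 25.8 and 26.7 CPM in the LSF libraries (-1.86 ± 0.14, adjusted p = 8.92e-16). Abcg5 and Abcg8, which together return plant sterols and cholesterol to the lumen, differed by -1.02 and -1.20, and Npc1l1, the cholesterol importer, by -0.24. All of Abca1, Abcg5 and Abcg8 are known targets of the oxysterol receptor LXR, whose genes Nr1h2 (-0.08) and Nr1h3 (0.11) were not called. Bile acid genes gave 5 lower of 8 tested, among them Slc51a and Slc51b, which form the basolateral bile acid exporter (-0.52 and -0.72), and Nr1h4, the bile acid receptor FXR (-0.42). Retinoid genes gave 6 lower and 1 higher of 16 (0 higher without BSF_C library 1 or LSF library 1 or 3), with Rdh7, a retinol dehydrogenase (-0.74), and Aldh1a1, which makes retinoic acid (-0.54), among the lower ones.

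Enzymes that handle foreign compounds were mostly lower in BSF_C, while Cyp1a1 was higher. Cyp3a11, the main mouse CYP3A enzyme of drug oxidation (chromosome 5, 145854426 to 145879964), had 173, 174 and 169 CPM in the BSF_C libraries, against 694, 743 and 732 CPM in the LSF libraries (-2.07 ± 0.056, adjusted p = 9.95e-36). Cyp3a25 and Cyp3a13, of the same subfamily, differed by -1.72 and -1.15. Of 9 tested genes of the CYP3A enzymes and the xenobiotic nuclear receptors, 8 were lower and 1 higher. Por, the reductase that supplies these enzymes with electrons, differed by -0.48, and the receptors Nr1i2 (PXR) and Nr1i3 (CAR) by -0.32 and -0.21. Hnf4a, a nuclear receptor of gut and liver identity, was the higher one (0.24). Among 19 other cytochrome P450 genes, 15 were lower and 2 higher, Cyp2u1 (0.59) and Cyp4f40 (0.25). Cyp2c29, which oxidises drugs and fatty acids, had 3.32, 2.11 and 2.82 CPM in the BSF_C libraries, against 28.7, 28.6 and 29.1 CPM in the LSF libraries (-3.39 ± 0.18), and Cyp2c55 had 21.4, 23.1 and 22.5 CPM in the BSF_C libraries, against 86.1, 92.9 and 92.8 CPM in the LSF libraries (-2.02). Cyp27a1, which makes an oxysterol and bile acid precursor, had 30.2, 31.8 and 31.1 CPM in the BSF_C libraries, against 88.7, 95.1 and 87.6 CPM in the LSF libraries (-1.54).

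Glutathione transferases, which conjugate electrophiles to glutathione, gave 11 lower and 0 higher of 19. Gstm1 had 81, 77.6 and 81.5 CPM in the BSF_C libraries, against 251, 267 and 245 CPM in the LSF libraries (-1.67 ± 0.062, adjusted p = 3.64e-29), and Gstm3 differed by -0.91. Gstp1 (0.04) and Gstt1 (-0.09), of other classes, were not called. Conjugating enzymes, carboxylesterases and efflux pumps gave 18 lower and 0 higher of 28. Abcb1a, the drug efflux pump P-glycoprotein, had 36.5, 33.1 and 37.2 CPM in the BSF_C libraries, against 73.9, 78.6 and 77.6 CPM in the LSF libraries (-1.11), Abcc2, an exporter of conjugates, differed by -1.02, and Ces2a, a carboxylesterase, by -1.14. The Ugt1a genes share exons, so their separate values are uncertain. Cyp1a1, which oxidises planar aromatic compounds and is the textbook gene under aryl hydrocarbon receptor control (chromosome 9, 57687928 to 57703824), went the other way, with 260.5, 239.7 and 244 CPM in the BSF_C libraries, against 69.3, 77.5 and 69 CPM in the LSF libraries. Its log2 fold change was 1.79 ± 0.065 (adjusted p = 1.41e-29), the smallest p among genes called higher. The other genes of that pathway gave no further higher call and 4 lower ones, of 12 tested. With Cyp1a1, 41.7% of the list was called, beside the background of 32.7%. Ahr, the receptor, differed by 0.08, Tiparp, which restrains it, by -0.02, and Nqo1, a quinone reductase, by -0.06, all not called. Cyp1a2 and Cyp1b1 were under 2 CPM in both groups and not called, with log2 fold changes of 0.67 and -0.56.

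Genes of cholesterol and fatty acid synthesis were more often higher than lower in BSF_C. Of 25 tested genes of cholesterol synthesis and targets of the sterol sensor SREBP2, 17 were called higher and 1 lower (median 0.32). Cyp51, lanosterol demethylase, had 92.6, 97.2 and 93.7 CPM in the BSF_C libraries, against 55, 64.5 and 56.3 CPM in the LSF libraries (0.69 ± 0.069, adjusted p = 7.82e-12), and Idi1, an isomerase of the isoprenoid steps, had 41.5, 42.5 and 48.6 CPM in the BSF_C libraries, against 27.5, 26.7 and 29.9 CPM in the LSF libraries (0.66). The groups did not overlap for either gene. Sqle, squalene epoxidase, differed by 0.48, Hmgcs1, which makes the precursor of mevalonate, by 0.36, and Insig1, which holds SREBP factors in the endoplasmic reticulum, by 0.51. Hsd17b7 was the lower one (-0.37). The count of higher calls fell to 11 without BSF_C library 1 or without LSF library 1. The bases before the start of Hmgcs1 are shown because they hold the sterol regulatory element TCACCCCAC in capitals, at chr13:119690101-119690350 on the plus strand (RefSeq, GRCm38.p6).
Hmgcs1: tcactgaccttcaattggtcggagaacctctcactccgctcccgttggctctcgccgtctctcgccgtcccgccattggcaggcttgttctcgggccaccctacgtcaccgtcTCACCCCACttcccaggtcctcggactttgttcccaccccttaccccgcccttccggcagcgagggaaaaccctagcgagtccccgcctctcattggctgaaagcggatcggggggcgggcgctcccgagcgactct
The element occurred on either strand in 0.496% of 32851 promoters, each taken as 250 bases before a start, and in 1 of 17 genes of the list that had a promoter in the table.

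Fatty acid synthesis genes gave 8 higher and 3 lower of 16 tested (median 0.200). Scd2, a stearoyl-CoA desaturase that makes monounsaturated fatty acids, had 452, 432 and 412 CPM in the BSF_C libraries, against 255, 262 and 271 CPM in the LSF libraries (0.72 ± 0.052, adjusted p = 8.52e-17), without overlap. Fasn, fatty acid synthase, had 349.6, 329.5 and 320.3 CPM in the BSF_C libraries, against 234, 210.3 and 227 CPM in the LSF libraries (0.57), Elovl6, which lengthens its product, differed by 0.48, and Fads1 and Fads2, the desaturases of polyunsaturated fatty acids, by 0.49 and 0.38. Scd1, the isoform next to Scd2, was lower instead, with 16.7, 18 and 16.2 CPM in the BSF_C libraries, against 33.4, 31.1 and 31 CPM in the LSF libraries (-0.91), as were Acacb, the acetyl-CoA carboxylase that restrains fatty acid oxidation (-1.05), and Me1, malic enzyme (-0.67). Srebf1 (0.04) and Acaca (0.12) were not called.

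Interferon-stimulated genes were lower in BSF_C, with 37 of 45 tested members called lower and 0 higher (median -0.66). Oasl2, an oligoadenylate synthetase relative with antiviral activity, had 86.6, 91.1 and 86.6 CPM in the BSF_C libraries, against 179.7, 183 and 166 CPM in the LSF libraries (-1.0 ± 0.061, adjusted p = 5.48e-20). Ifit3, an antiviral protein of the same program, had 19, 22.1 and 20.3 CPM in the BSF_C libraries, against 61.3, 61.4 and 50.6 CPM in the LSF libraries (-1.50 ± 0.094), and Irf7, the factor that amplifies interferon production, had 122, 119 and 111 CPM in the BSF_C libraries, against 241, 236 and 229.6 CPM in the LSF libraries (-1.0). Isg15, a ubiquitin-like modifier, differed by -0.80, Rsad2 (viperin) by -1.56, and the transcription factor Stat2 by -0.36. Irgm1, a GTPase that guards vacuoles, differed by -0.30. Irf1 (0.12), Irf8 (-0.04) and Ifitm3 (-0.06) were not called. The interferon-stimulated response element, searched on both strands as GAAA, any 2 bases and GAAA, occurred in 2.977% of 32851 promoters and in 20 of the 34 genes of the list that had a promoter in the table. Of those 20 genes, 16 were called lower, 0 were called higher, and the others were not called or not tested. The bases before 3 of these genes are shown with each match in capitals, reading along the gene's strand, and matches on the opposite strand read TTTC, 2 bases and TTTC. They lie at chr4:156200819-156201068 on the minus strand for Isg15, with 3 overlapping matches, at chr19:34583279-34583528 on the plus strand for Ifit3, with 2 opposite-strand matches, and at chr11:48871421-48871670 on the minus strand for Irgm1, with 2 overlapping matches.
Isg15: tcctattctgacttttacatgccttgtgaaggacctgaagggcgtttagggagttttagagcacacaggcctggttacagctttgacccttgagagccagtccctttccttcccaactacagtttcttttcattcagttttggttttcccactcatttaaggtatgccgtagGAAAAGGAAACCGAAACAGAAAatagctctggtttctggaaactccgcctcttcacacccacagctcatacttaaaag
Ifit3: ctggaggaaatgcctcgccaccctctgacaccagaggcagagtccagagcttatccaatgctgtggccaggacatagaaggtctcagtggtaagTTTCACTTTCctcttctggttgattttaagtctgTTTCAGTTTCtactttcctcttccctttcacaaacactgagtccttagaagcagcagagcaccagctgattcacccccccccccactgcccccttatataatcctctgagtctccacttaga
Irgm1: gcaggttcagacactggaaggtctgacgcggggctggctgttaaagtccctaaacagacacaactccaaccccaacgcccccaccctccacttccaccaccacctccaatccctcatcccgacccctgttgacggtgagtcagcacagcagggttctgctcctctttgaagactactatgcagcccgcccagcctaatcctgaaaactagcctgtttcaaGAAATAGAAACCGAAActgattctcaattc

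Genes of MHC class I presentation gave 11 lower and 0 higher of 17, with Tap1, the peptide transporter (-0.51), and H2-T23, a nonclassical class I molecule (-0.44), among them, while the immunoproteasome subunits Psmb8 (0.02) and Psmb9 (0.11) were not called. Ligands of the butyrophilin-like family and of checkpoint receptors gave 10 lower and 0 higher of 13, among them Btnl1 (-0.36) and Btnl6 (-0.32), which sustain intraepithelial gamma-delta T cells. Epithelial chemokines and cytokines gave 9 lower and 2 higher of 17. Il33, an alarmin, had 13.8, 19.1 and 14.2 CPM in the BSF_C libraries, against 29.2, 28.9 and 29.4 CPM in the LSF libraries (-0.89), Il15, a growth factor of intraepithelial lymphocytes, had 16.3, 18.6 and 20.8 CPM in the BSF_C libraries, against 26.9, 32 and 31.8 CPM in the LSF libraries (-0.70), and Ccl28, which draws antibody-producing cells, was higher (0.51).

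MHC class II genes went the other way, with 6 of 9 tested members called higher and 1 lower (median 0.7). Cd74, the invariant chain that escorts class II molecules (chromosome 18, 60803848 to 60812652), had 148, 136 and 138 CPM in the BSF_C libraries, against 67.1, 64.1 and 63.5 CPM in the LSF libraries (1.11 ± 0.065, adjusted p = 1.62e-20). H2-Aa and H2-Ab1, the chains of the class II molecule I-A, differed by 0.88 and 0.61, H2-Eb1 by 0.69, and Ciita, the master activator of the class, by 0.81. H2-DMb1, a peptide-loading chain, was called higher (0.82), but not under the Wald test of DESeq2 or without LSF library 1. H2-DMa (0.17) and Lgmn (-0.47) were not called. Ctss, the protease that trims the invariant chain, was called lower (-0.56), and that call was lost without BSF_C library 1 or 2 or LSF library 3. Neither of the searched elements of these pathways, the X2 box TGACGCA for class II and the xenobiotic response element TTGCGTG for the aryl hydrocarbon receptor list, occurred in the promoters of the matched members (0 of 8 and 0 of 10). Among all promoters they occurred in 1.747% and 0.925%. At shares this low, their absence from so few genes says nothing about either pathway. The search took 1 spelling of each element in the 250 bases before a start, and sites further away were not searched.

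Leukocyte transcripts moved with these immune groups in part, despite the gate. Genes of intraepithelial lymphocytes gave 9 lower and 0 higher of 17 tested, and their summed level was 272 to 308 CPM in BSF_C and 401 to 415 CPM in LSF. Gzma, a granzyme, had 48 ± 1.73 CPM in BSF_C and 78 ± 2.30 CPM in LSF (SD, n = 3 each) (-0.70), Cd8a, a T cell coreceptor, had 38.6 ± 2.64 CPM in BSF_C and 62.9 ± 2.11 CPM in LSF (SD, n = 3 each) (-0.70), and Ptprc, which encodes CD45, was not called (-0.22). Genes of myeloid and B cells gave 7 lower and 1 higher of 14, with a summed level of 62.3 to 70.7 CPM in BSF_C and 81.2 to 87.2 CPM in LSF, and the lower count was 4 without BSF_C library 1 or without LSF library 2. None of the markers of either list was at 0 in all 6 libraries. Beside its 7 lower members, the myeloid and B cell list held Cd14, called higher (0.39), and Csf1r (-0.045) and Itgam (0.32), not called. Myeloid and B cells also express MHC class II genes. The part of leukocytes in the differences of the interferon, MHC and chemokine genes was not tested.

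Immediate early genes, which answer growth factors, stress and cell handling within minutes, were lower in BSF_C, with 26 of 31 tested members called lower and 0 higher (median -0.6). Fos, a subunit of the AP-1 factor, had 202, 206 and 208 CPM in the BSF_C libraries, against 453, 445 and 425 CPM in the LSF libraries (-1.10 ± 0.053, adjusted p = 2.52e-24). Egr1, a zinc finger factor, had 111, 107 and 116 CPM in the BSF_C libraries, against 280, 292 and 294 CPM in the LSF libraries (-1.38 ± 0.057, adjusted p = 3.87e-27), and Dusp1, a phosphatase of MAP kinases, had 30.2, 29.7 and 31.1 CPM in the BSF_C libraries, against 68.6, 60.1 and 60.3 CPM in the LSF libraries (-1.05). In each of these genes the groups were separate. Junb differed by -0.98, Atf3 by -1.12 and Zfp36, which destabilises messenger RNA, by -0.96. Myc (0.15) and Ptgs2 (-0.15) were not called. The bases before Dusp1, at chr17:26508473-26508722 on the minus strand, are shown because they hold the cyclic AMP response element TGACGTCA (capitals).
Dusp1: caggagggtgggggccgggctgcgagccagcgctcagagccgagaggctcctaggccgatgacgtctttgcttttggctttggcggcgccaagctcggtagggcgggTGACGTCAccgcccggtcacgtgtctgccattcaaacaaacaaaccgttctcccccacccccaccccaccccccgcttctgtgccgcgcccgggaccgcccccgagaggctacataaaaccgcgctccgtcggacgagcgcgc
That element occurred in 1.546% of 32851 promoters and in 3 of 24 matched immediate early genes, Btg2, Maff and Dusp1, all called lower. The CArG box, the site of serum response factor, occurred in 1.467% and in 3 of 24, namely Zfp36, Egr2 and Dusp5, also called lower.

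Core clock genes differed in part, in both directions. Among the repressive limb, Nr1d1 (Rev-erb alpha), the nuclear receptor that represses Arntl, had 49.1, 42.1 and 47.9 CPM in the BSF_C libraries, against 102, 94.3 and 95.8 CPM in the LSF libraries (-1.07 ± 0.075, adjusted p = 1.46e-17). Nr1d2 (Rev-erb beta) had 9.46, 14.1 and 12.4 CPM in the BSF_C libraries, against 28.4, 34.2 and 31.8 CPM in the LSF libraries (-1.39 ± 0.13), and Per1 had 14, 13.8 and 14.7 CPM in the BSF_C libraries, against 30.3, 31.5 and 28.3 CPM in the LSF libraries (-1.08 ± 0.11). All 3 were lower in BSF_C without overlap. Cry1, a repressor that peaks late in the cycle, went the other way with 44.6, 41.4 and 48.1 CPM in the BSF_C libraries, against 24.6, 28.4 and 27.6 CPM in the LSF libraries (0.73 ± 0.094, adjusted p = 9.45e-09), as did Per2 (0.30) and Bhlhe40 (0.57). Ciart (-0.80), Bhlhe41 (-0.53), Per3 (-0.41), Cry2 (0.02), Csnk1d (0.11) and Csnk1e (0.24) were not called, which left 3 higher and 4 lower among 13 members. Of the activators, Arntl (BMAL1, -0.07, adjusted p = 0.602), Clock (0.07, adjusted p = 0.401) and Rora (-0.02) were not called. Npas2, a partner that can stand in for CLOCK, was lower (-0.27), but not with library totals alone, without BSF_C library 3 or without LSF library 1. The 5 tested activators gave 1 higher and 1 lower, 40% called beside the background of 32.7%.

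Of 13 clock output genes, 6 were lower and 1 higher. Cirbp, a cold-inducible RNA-binding protein, had 21.2, 19.7 and 19.3 CPM in the BSF_C libraries, against 58.1, 56.7 and 54.4 CPM in the LSF libraries (-1.49 ± 0.093, adjusted p = 2.18e-19), and its relative Rbm3 differed by -0.66. Among the factors that bind D-box elements, Dbp had 7.0, 8.54 and 7.47 CPM in the BSF_C libraries, against 10.7, 11.2 and 13 CPM in the LSF libraries (-0.60 ± 0.17, adjusted p = 0.00412), and Tef differed by -0.29. Hlf (-0.44) lost its call under 7 of 16 alternatives. Nampt, the NAD salvage enzyme, was lower (-0.29), Wee1, a cell cycle kinase, was higher (0.26) but lost its call under 4 alternatives, and Noct (-0.12), Klf9 (-0.10), Klf10 (-0.08), Nfil3 (-0.07) and Usp2 (0.01) were not called. The E-box CACGTG, the site of CLOCK and BMAL1, occurred in 6.021% of 32851 promoters and in 4 of 9 matched repressor genes. Those were Per1, called lower, Cry1, called higher, and Ciart and Bhlhe41, not called. The bases before Per1 (chr11:69098699-69098948, plus strand, 1 of 2 promoters of the gene in the table) and before Cry1 (chr10:85185055-85185304, minus strand) are shown since these E-box genes differed in opposite directions, with the E-box in capitals.
Per1: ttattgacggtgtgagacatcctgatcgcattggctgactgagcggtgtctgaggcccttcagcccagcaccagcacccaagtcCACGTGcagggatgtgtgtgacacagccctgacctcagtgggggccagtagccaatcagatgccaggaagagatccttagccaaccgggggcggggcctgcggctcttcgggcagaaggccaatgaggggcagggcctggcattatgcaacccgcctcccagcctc
Cry1: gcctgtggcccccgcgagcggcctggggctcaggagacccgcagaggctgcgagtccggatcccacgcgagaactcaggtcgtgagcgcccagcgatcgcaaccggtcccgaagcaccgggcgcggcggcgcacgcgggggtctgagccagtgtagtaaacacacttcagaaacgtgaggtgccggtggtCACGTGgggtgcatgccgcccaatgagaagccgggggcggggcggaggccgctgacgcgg

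Genes of growth and cell division were higher in BSF_C. Of 35 tested proliferation genes, 28 were called higher and 0 lower (median 0.41). Mki67, the marker of cycling cells, had 296, 314 and 307 CPM in the BSF_C libraries, against 217, 209 and 216 CPM in the LSF libraries (0.52 ± 0.063, adjusted p = 2.51e-09). Ccnd1 (cyclin D1) had 179.6, 172 and 176 CPM in the BSF_C libraries, against 126, 112 and 118 CPM in the LSF libraries (0.57), Top2a, a topoisomerase of dividing cells, had 79.1, 80.9 and 79.2 CPM in the BSF_C libraries, against 48, 52.7 and 47.4 CPM in the LSF libraries (0.69), and Mcm5, a helicase subunit of DNA replication, differed by 0.56. Cdk1 (-0.08), Pcna (0.27) and Ccnb2 (0.00) show the range within the list, in which Pcna was called and Cdk1 and Ccnb2 were not. Stem cell and Wnt target genes gave 8 higher and 2 lower of 21. Olfm4, a secreted marker of crypt base cells, had 1730 ± 24.2 CPM in BSF_C and 1302 ± 4.53 CPM in LSF (SD, n = 3 each) (0.41), Smoc2 differed by 0.43 and Prom1 by 0.59. Lgr5, the receptor that marks stem cells, was called lower instead (-0.39), a call lost without BSF_C library 2, and Axin2, a Wnt feedback gene, was not called (-0.02). Without BSF_C library 1 the count of higher stem cell genes was 5.

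Ribosome biogenesis factors gave 14 higher and 0 lower of 24, with Nolc1 (0.49) and Nhp2 (0.57) in front, a count that was 9 without LSF library 2. Mitochondrial ribosomal proteins gave 17 higher and 1 lower of 50, 36% called, near the background of 32.7%. All but 1 of these calls were higher, while 15.6% of all genes tested were called higher. Cytosolic ribosomal proteins gave 3 higher and 2 lower of 79, a share of 6.33% called, under the background of 32.7%. Translation factors gave 12 higher and 5 lower of 32, the lower ones including Eef2 (-0.37) and Eef1a1 (-0.15), which carry elongation. Genes of the unfolded protein response gave 15 higher and 2 lower of 25 (median 0.39). Hspa5, the chaperone BiP of the endoplasmic reticulum, had 1123, 1130 and 1160 CPM in the BSF_C libraries, against 841, 837 and 862 CPM in the LSF libraries (0.43 ± 0.046, adjusted p = 5.55e-11). Sdf2l1, a partner of BiP, differed by 0.73, Calr (calreticulin) by 0.57 and Pdia6, a disulfide isomerase, by 0.66, while Xbp1 (-0.08) and Ddit3 (-0.09) were not called. Heat shock chaperones gave 9 higher and 3 lower of 21. Hsph1 (0.75), Hsp90aa1 (0.65) and the mitochondrial Hspd1 (0.59) were higher, and the small heat shock proteins Hspb1 (-1.18), Hspb8 (-1.19) and Cryab (-1.10) were lower. These small heat shock proteins are abundant in heart and muscle, whose transcripts also differed between the groups. Which cells the small heat shock transcripts came from was not tested. Of 13 mitochondrially encoded genes, 9 were lower and 0 higher (log2 fold changes down to -0.29). Their share of all counts was 9.33 to 9.91% in BSF_C and 10.1% in each LSF library. Autophagy genes gave 9 lower and 0 higher of 22, 40.9% called, where 32.7% of all genes tested were called and 17.1% called lower.

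Paneth cell genes gave 7 higher and 1 lower of 15 (median 0.4). Lyz1, the lysozyme of Paneth cells, had 1435, 1472 and 1447 CPM in the BSF_C libraries, against 1134, 1059 and 1093 CPM in the LSF libraries (0.41 ± 0.047, adjusted p = 6e-10). Mptx2, a pentraxin of the same cells, had 121, 112 and 115 CPM in the BSF_C libraries, against 63.4, 58.5 and 58.2 CPM in the LSF libraries (0.95 ± 0.067, adjusted p = 1.79e-17), and Mmp7, which activates defensins, differed by 1.02. Defensin genes are near-identical copies of each other and their separate values are uncertain. Enteroendocrine genes gave 7 higher and 0 lower of 23. That is 30.4% called, all higher, where 32.7% of all genes tested were called and 15.6% called higher. Among the 7 were Neurog3, the factor that sets the lineage, with 13.3, 13.1 and 10.7 CPM in the BSF_C libraries, against 6.04, 5.78 and 6.25 CPM in the LSF libraries (1.03), and Tac1, a tachykinin (0.88). The hormones Gip (-0.16), Cck (0.35) and Sst (0.30) were not called. The higher count of enteroendocrine genes ranged from 4 to 12 over the alternatives. Tuft cell genes gave 3 higher and 1 lower of 15 (26.7% called, under the background), with Dclk1 (0.69) and Trpm5 (0.38) higher. Goblet cell genes gave 4 higher (2 without BSF_C library 2 or LSF library 1) and 4 lower (2 without LSF library 3) of 18, with Agr2, a disulfide isomerase needed for mucin (0.61), higher and Fcgbp, a mucus protein (-0.29), and Zg16, a lectin of mucus (-0.33), lower. Reg3g, an antibacterial lectin, had 468, 482 and 449.5 CPM in the BSF_C libraries, against 293, 288 and 308 CPM in the LSF libraries (0.66 ± 0.051, adjusted p = 1.08e-15), and its relative Reg3b differed by 0.39, whereas Reg3a (-0.56) and Reg3d (-1.29) were lower. Tight junction genes gave 1 higher and 2 lower of 19, 15.8% called, with Cldn2, a pore-forming claudin (0.36), higher and Cldn23 (-0.56) and Cldn4 (-0.21) lower, the call of Cldn4 being lost under 6 of 16 alternatives.

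Genes of the villus tip gave 9 lower and 0 higher of 14, but 3 of them (Fos, Junb and Klf2) are also immediate early genes. Enpp3, an ectonucleotidase of the tip, had 42.4, 38.4 and 49.1 CPM in the BSF_C libraries, against 98.1, 87.9 and 97.5 CPM in the LSF libraries (-1.13), and Ada, adenosine deaminase, differed by -0.61. Apoa4 (-0.01), Nt5e (0.07) and Slc28a2 (0.05), other genes of the tip, were not called. Structural genes of the microvillus gave 12 lower and 0 higher of 20, with Cobl, an actin nucleator (-0.91), and Ezr (ezrin), which ties membrane to actin (-0.65), in front. Of 9 genes known for the distal small intestine, 8 were lower and 1 higher, among them Cubn, a vitamin B12 receptor subunit, with 16, 13.2 and 12.8 CPM in the BSF_C libraries, against 35.7, 38.9 and 38.1 CPM in the LSF libraries (-1.42), and Muc3 (-1.15). Of 15 genes known for the proximal small intestine, 5 were lower and 2 higher. Gata4, which sets proximal identity, was not called (0.03).

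Iron genes gave 3 higher and 4 lower of 14, with Tfrc, the transferrin receptor (0.48), higher and Slc46a1, a carrier of folate and haem (-0.62), and Fth1, ferritin heavy chain (-0.34), lower. The higher count was 1 without LSF library 1. Vitamin D, calcium and phosphate genes gave 2 higher and 4 lower of 11, with the calcium-binding Calb1 higher (1.37) and Slc34a2, a phosphate carrier (-0.86), and Vdr, the vitamin D receptor (-0.25), lower. Of 15 genes of purine breakdown and nucleosides, 3 were lower and 1 higher (0 higher without LSF library 3), 26.7% called, under the background of 32.7%. Among the lower ones were the nucleoside carrier Slc28a1 (-0.90) and the cytidine deaminase Cda (-0.62). Genes of mucosal defence gave 6 higher and 0 lower of 14, 42.9% called, where 15.6% of all genes tested were called higher. Itln1, a lectin (0.48), and Pigr, which carries IgA to the lumen (0.17), were among them. Gasdermin and inflammasome genes gave 3 higher and 4 lower of 21, 33.3% called, near the background of 32.7%. The adaptor Pycard (0.45) was higher and Gsdmd, the pore-forming gasdermin D (-0.36), lower. The higher count of that list was 1 without BSF_C library 3 or LSF library 2.

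Intestinal identity factors gave 3 higher and 8 lower of 23, with Maf (-0.81) and Klf4 (-0.59) lower and Foxa2 (0.52) higher. Keratins gave 3 higher and 2 lower of 15, 33.3% called, near the background of 32.7%. The lower ones were Krt80 (-1.60) and Krt15 (-1.37), and the higher count was 1 without BSF_C library 1. Genes of the NRF2 antioxidant response gave 4 higher and 3 lower of 18, 38.9% called beside the background of 32.7%. Gpx2, a glutathione peroxidase of the gut (0.49), was higher and Gclm, a subunit of glutathione synthesis (-0.29), lower. The higher count of the NRF2 list was 2 without BSF_C library 2. ATF4 targets gave 4 higher and 3 lower of 25, 28% called, under the background of 32.7%. Of these, the mitochondrial folate enzymes Mthfd2 (0.71) and Shmt2 (0.62) were higher, and the pseudokinase Trib3 (-1.03) and the transporter chain Slc3a2 (-0.43) lower. Glycolysis genes gave 5 higher and 3 lower of 20, 40% called beside the background of 32.7%. The hexokinases Hk1 (-0.59) and Hkdc1 (-0.50) were lower and Pgam1, phosphoglycerate mutase (0.28), higher. The higher count of that list was 2 or 3 without any of 5 libraries, all but LSF library 3. Nuclear subunits of the respiratory chain gave 12 higher and 1 lower of 74, 17.6% called, and the higher count was 7 without BSF_C library 1. Proteasome subunits gave 7 higher and 1 lower of 31, 25.8% called, under the background of 32.7%. All but 1 of these calls were higher, while 15.6% of all genes tested were called higher.

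**Figure D3:**
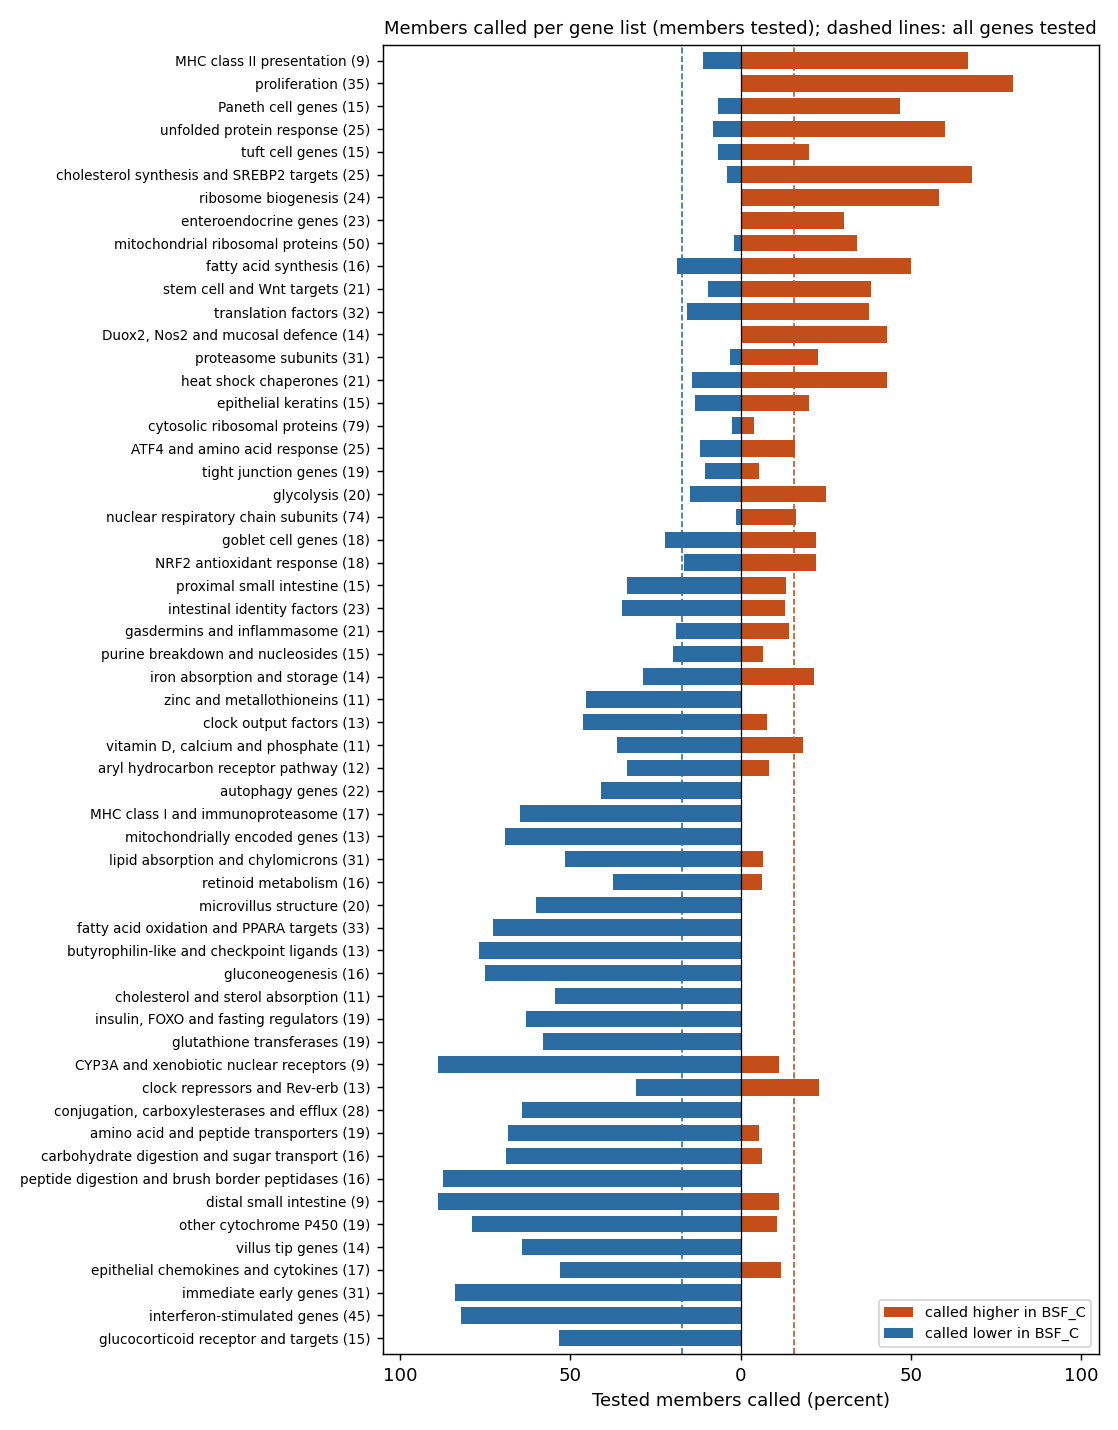
Percent of the tested members of each gene list called higher (right) or lower (left) in BSF_C, for lists with 9 or more tested members (number in brackets), ordered by median log2 fold change from the highest at the top. Dashed lines mark the shares over all genes tested, 15.6% higher and 17.1% lower. Proliferation and the unfolded protein response stand on the right, and interferon-stimulated and immediate early genes on the left.

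By single gene, the smallest p values among lower genes that the lists above do not hold belonged to Camk2b, Akp3 and Ndrg1. Camk2b, a calcium-dependent kinase known from neurons, had 253, 271 and 272 CPM in the BSF_C libraries, against 857, 847 and 858 CPM in the LSF libraries (-1.69 ± 0.050, adjusted p = 8.01e-34). Akp3, the intestinal alkaline phosphatase of the brush border, had 498, 466 and 442 CPM in the BSF_C libraries, against 1229, 1265 and 1221 CPM in the LSF libraries (-1.40 ± 0.052, adjusted p = 3.64e-29). Ndrg1, a stress-induced protein of differentiated cells, had 90.7, 96.1 and 98.1 CPM in the BSF_C libraries, against 259.5, 259 and 263 CPM in the LSF libraries (-1.46 ± 0.064, adjusted p = 6.38e-26). Among the 12 largest falls of genes that reached 5 CPM in either group were also Hdc, the histamine-forming enzyme (-2.12), B3gnt6, which extends mucin glycans (-2.75), Xirp1, an actin-binding protein of muscle (-2.51), and Hba-a1, a haemoglobin chain of red cells (-2.20) that has a near-identical copy. Of the 12 largest rises, Cyp1a1 was 1, and the other 11 (Slc6a11, Adcyap1r1, Cntn1, Unc80, Hpcal4, Kcnj10, Kif1a, Lonrf2, Astn1, Gap43 and Negr1) are genes known from neurons or glia, with log2 fold changes from 1.49 to 1.87. Slc6a11, a carrier of the transmitter GABA, had 13.9, 15.2 and 9.67 CPM in the BSF_C libraries, against 3.26, 3.73 and 3.59 CPM in the LSF libraries. Snhg11, a noncoding RNA host gene, had 44.6, 47.6 and 42.1 CPM in the BSF_C libraries, against 18.6, 17.5 and 15.6 CPM in the LSF libraries (1.38 ± 0.10), and Apol10a, an apolipoprotein L, had 503, 519 and 519.7 CPM in the BSF_C libraries, against 315, 324 and 312 CPM in the LSF libraries (0.70 ± 0.051).

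Transcripts of other tissues were present in the sorted material and differed between the groups. Heart and striated muscle genes gave 18 lower and 1 higher of 25 tested, with a summed level of 904 to 968 CPM in BSF_C and 1285 to 1419 CPM in LSF. Myh6, the myosin heavy chain of atrium and adult mouse ventricle, had 55.9, 65.5 and 59.6 CPM in the BSF_C libraries, against 190, 166 and 185 CPM in the LSF libraries (-1.58), Tcap, a sarcomere protein, had 8.35, 11.3 and 9.55 CPM in the BSF_C libraries, against 58.3, 46.5 and 52 CPM in the LSF libraries (-2.42), and Pln, which restrains the cardiac calcium pump, had 63.1, 77.8 and 68.3 CPM in the BSF_C libraries, against 195, 172 and 192 CPM in the LSF libraries (-1.42). Acta1, skeletal actin, was higher instead, with 96.3, 100.1 and 94.4 CPM in the BSF_C libraries, against 52, 52.7 and 50.6 CPM in the LSF libraries (0.90). The skeletal muscle myosins Myh1 and Myh4 were at 0 in all 6 libraries, for which a floor of 3 counts per library allows 0.358 to 0.395 CPM. Atp2a2, the calcium pump that other tissues also use, was not called (0.01). It alone held 443.9 to 449.3 CPM of the summed level in BSF_C and 435.5 to 447.9 CPM in LSF.

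Brain and nervous system genes went the other way, with 12 higher and 1 lower of 18 and a summed level of 338 to 359 CPM in BSF_C and 239.5 to 245 CPM in LSF. Of these sums, Mbp (0.31) alone held 144.6 to 154.3 CPM in BSF_C and 118.5 to 121.1 CPM in LSF. Syt1, a synaptic vesicle protein, had 15.8, 14.8 and 14.1 CPM in the BSF_C libraries, against 6.76, 6.29 and 5.32 CPM in the LSF libraries (1.28), and Gad2, which makes GABA, differed by 1.29. Genes of enteric neurons and glia gave 4 higher and 0 lower of 7, with a summed level of 20.5 to 23.3 CPM in BSF_C and 9.89 to 13.6 CPM in LSF. Melanocyte genes gave 8 lower and 0 higher of 9, with a summed level of 86.8 to 139 CPM in BSF_C and 169.8 to 246 CPM in LSF, and fibroblast and matrix genes gave 8 lower and 0 higher of 16, with 111 to 178 CPM in BSF_C and 226 to 273 CPM in LSF. Tyrp1, an enzyme of pigment synthesis, had 27.3 ± 7.27 CPM in BSF_C and 58.1 ± 13.4 CPM in LSF (SD, n = 3 each) (-1.09), and Vim (vimentin), a mesenchymal filament, had 42.5 ± 11.3 CPM in BSF_C and 100 ± 1.17 CPM in LSF (SD, n = 3 each) (-1.23). Endothelial genes gave 2 lower of 13 (1 without LSF library 1), 15.4% called, and kidney tubule genes 2 higher and 1 lower of 14, 21.4% called. Both shares were under the background of 32.7%. Smooth muscle genes gave 3 lower and 1 higher of 6. That higher call was lost under 7 of 15 alternatives, among them without BSF_C library 2 or 3 or LSF library 1 or 3. Adipocyte genes gave 3 lower of 3 tested, while Adipoq, Plin1, Lep, Retn and Ucp1 were at 0 in all 6 libraries. Hepatocyte genes gave 1 higher of 3, 33.3% called beside the background of 32.7%. That gene, Cps1 (0.26), alone held 501 of the summed 509 CPM in BSF_C library 1. Pancreatic acinar genes gave 0 called of 3. Skin keratinocyte genes passed the filter largely through the control libraries, where their summed level was 663 to 773 CPM, against 4.54 to 6.67 CPM in BSF_C and 4.62 to 5.92 CPM in LSF, and 6 of the 16 were at 0 in all 6 libraries, so that the absence of calls among them says nothing. Where these transcripts came from is not given in the labels, and their part in the differences of the other gene groups was not tested. With all genes of these tissue and leukocyte lists left out of the fit, 4609 genes were called, of which 2198 were higher and 2411 lower. That fit kept the counts of all other genes, so it cannot show what other tissues or leukocytes added to them.

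**Figure D4:**
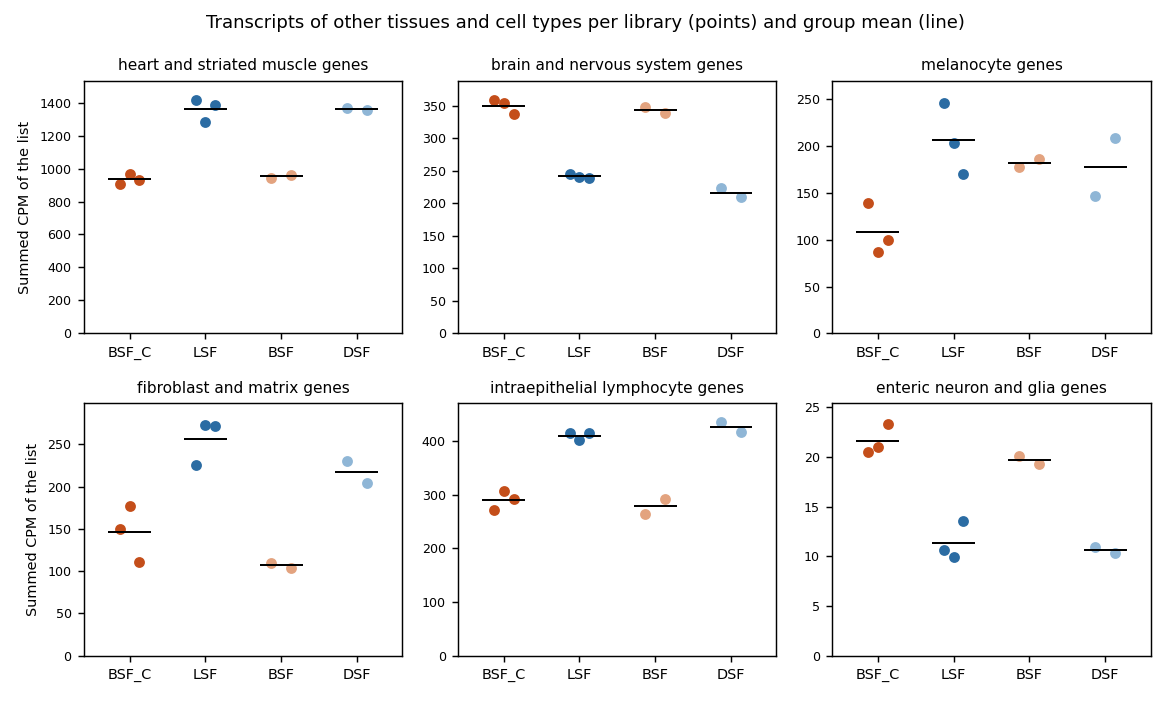
Summed CPM of 6 marker lists of other tissues and cell types in each library (points) with the group mean (line), for BSF_C and LSF (3 libraries each) and for BSF and DSF (2 libraries each). Heart genes lie lower and brain genes higher in BSF_C than in LSF, and BSF and DSF differ in the same directions for these lists.

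BSF and DSF libraries share no library with the comparison above, and their difference is given as a description without a test, since each group has 2 libraries. Of the 2225 genes higher in BSF_C than in LSF, 1657 (74.5%) were also higher in BSF than in DSF by the fitted value, where 49.5% of all genes tested were. Of the 2445 lower genes, 1798 (73.5%) were also lower in BSF, against 50.1% of all genes tested. The BSF and DSF libraries did not overlap in that direction for 1203 (54.1%) of the higher and 1369 (56%) of the lower genes, where 28% of all genes tested were separated with BSF higher and 28% with BSF lower. The sizes were smaller, with a median log2 fold change of 0.139 for BSF over DSF against 0.402 for BSF_C over LSF among higher genes, and of -0.155 against -0.45 among lower genes. Of the 760 called genes that differed by at least 2-fold, 682 (89.7%) had the same sign.

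Gene groups had different shares of members with the same sign. All 37 called interferon-stimulated genes were lower in BSF than in DSF as well, 34 of them without overlap, and so were 25 of 26 called immediate early genes, 24 without overlap. Oasl2 had 81.6 and 87.6 CPM in the BSF libraries, against 171 and 184 CPM in the DSF libraries, and Fos had 193 and 204 CPM in the BSF libraries, against 413 and 411 CPM in the DSF libraries. In both genes the BSF libraries lay below the DSF libraries, as the BSF_C libraries lay below the LSF libraries. Of the other-tissue lists, 19 of 19 called heart genes, 12 of 13 called brain genes and 8 of 8 called fibroblast genes had the same sign, but 2 of 8 called melanocyte genes and 1 of 3 called kidney genes. Intraepithelial lymphocyte genes (9 of 9), butyrophilin-like and checkpoint ligands (10 of 10), microvillus genes (12 of 12) and ribosome biogenesis factors (14 of 14) also kept their sign. Cyp1a1 had 257 and 236 CPM in the BSF libraries, against 48.1 and 47.9 CPM in the DSF libraries, a log2 fold change of 2.36 for BSF over DSF beside 1.79 for BSF_C over LSF. Camk2b differed by -1.64 beside -1.69.

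Metabolic groups covered a wide range of shares. Of the called genes, the same sign was seen for 6 of 12 in gluconeogenesis, 11 of 24 in fatty acid oxidation, 5 of 18 in cholesterol synthesis, 2 of 11 in fatty acid synthesis, 7 of 18 in lipid absorption and 4 of 17 among other cytochrome P450 genes, beside 3455 of 4670 (74%) over all called genes. It was seen for 6 of 6 in sterol absorption, 7 of 8 in glycolysis and 4 of 5 each among bile acid and zinc genes. Insulin and fasting regulators (9 of 12) and glucocorticoid receptor genes (6 of 8) had 75%, near the share over all called genes. Amino acid and peptide transporters had 9 of 14, glutathione transferases 7 of 11, CYP3A and receptor genes 6 of 9 and vitamin D genes 4 of 6. Peptidases had 7 of 14 and carbohydrate genes 5 of 12. Pck1 had 54.5 and 60.2 CPM in the BSF libraries, against 71.2 and 69.5 CPM in the DSF libraries, a log2 fold change of -0.29 for BSF over DSF against -3.02 for BSF_C over LSF. Cyp3a11 had 162 and 174 CPM in the BSF libraries, against 188 and 167 CPM in the DSF libraries, which is -0.08 against -2.07. For both genes the wide gap between BSF_C and LSF had no counterpart of like size between BSF and DSF. Cd74 differed by -0.09 against 1.11. Nr1d1 and Per1 were lower in BSF as well (-0.29 and -0.47), and Per2 higher (0.93). Proliferation genes had the same sign in 20 of 28 and unfolded protein response genes in 12 of 17. Whether the difference between the pairs of groups exceeds chance was not tested for any list.

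**Figure D5:**
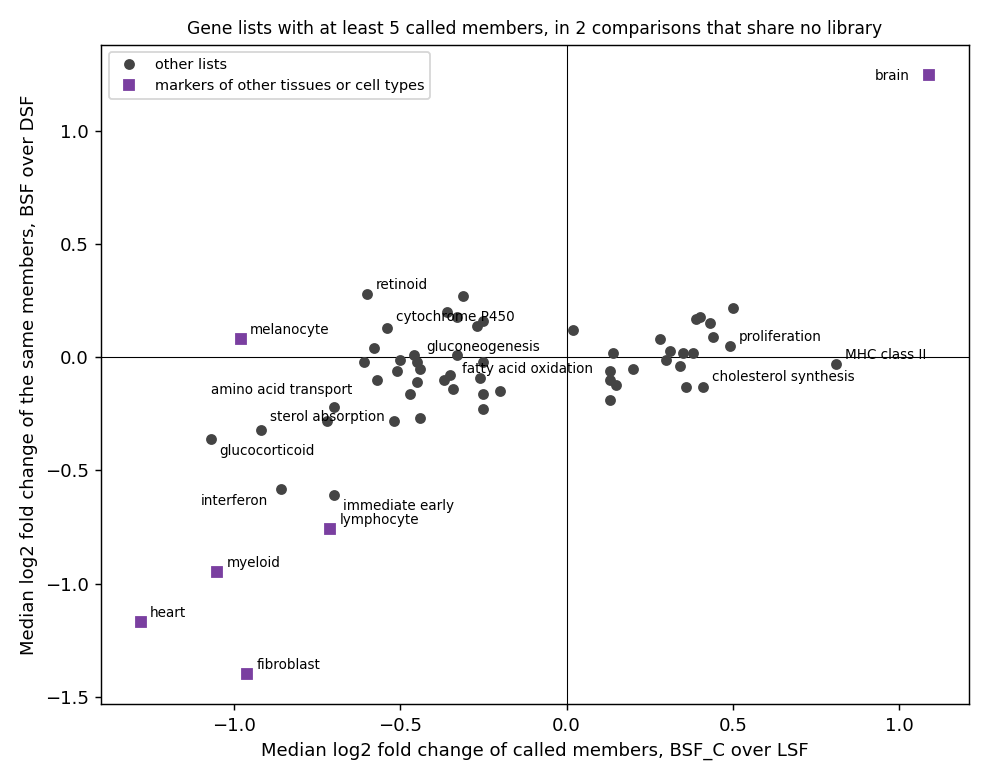
Median log2 fold change of the called members of each gene list for BSF_C over LSF (horizontal axis) and of the same members for BSF over DSF (vertical axis), for lists with at least 5 called members. Heart, fibroblast, interferon and immediate early lists lie low on both axes and brain genes high on both, while gluconeogenesis, fatty acid oxidation and MHC class II lie near 0 on the vertical axis.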

How the data were processed

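Polyadenylated RNA of sorted jejunal epithelial cells was counted per gene in 13 libraries, of which 6 (BSF_C and LSF) were compared. The deposited table held unnormalized counts, as whole numbers, for each gene. FastQC 0.11.8, cutadapt 2.9, STAR 2.7.2e, DESeq2 1.32.0 and the build GRCm38 (mm10) are named per the submitters' processing notes. Strand setting, annotation and the treatment of multi-mapping reads are not given there. Near-identical gene copies and overlapping genes are therefore uncertain. GENCODE release M21 matched 21689 symbols (99.2%) and gave their coordinates. Promoters are RefSeq's, on GRCm38.p6.

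Groups followed the labels. DSF columns were tied to their group but to no replicate number. Genes were kept by filterByExpr, libraries were scaled by trimmed means, and edgeR 4.0.16 (R 4.3.3) fitted all 13 libraries in 1 quasi-likelihood model by group, with 8 residual degrees of freedom. The test was two-sided with Benjamini-Hochberg adjustment over 14300 genes and a threshold of 0.05. The SE was the absolute log2 fold change divided by the root of F. Floors of 3 counts cover counting error only.

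The comparison, its gene lists (76 lists, 1482 genes) and the naming rule were chosen with earlier results of these data known. The rule took the 12 largest rises and 12 largest falls without overlap among genes reaching 5 CPM in either group, the 8 smallest p in each direction, up to 4 members per list with a called gene, and all members of the clock, MHC class II and epithelial marker lists. Other members are named beside the count of their list. Some genes that the rule takes are not reported here. Motifs were searched on both strands of the 250 bases before each start, 8 motifs in all.

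The procedure was tested on simulated data, where the share of false calls lay above the nominal rate and part of the smaller changes was missed. Alternatives were the size factors and the Wald test of DESeq2 1.42.0, library totals alone, limma-voom (limma 3.58.1), no filter, fits of 6 or 10 libraries, a replicate block, GC and length trends removed by lowess with a span of 0.3, genes of other tissues left out, and each library left out in turn. Reads were not used here.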

Additional observations from a re-analysis of the deposited data

How the results depend on the processing

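The number of genes called stayed within 1.5 times of 4670 under every alternative run. It was 4627 with the size factors of DESeq2, 5095 with library totals alone, 3628 with the Wald test of DESeq2, 4784 with limma-voom, 4647 with no filter, 5492 without the control libraries, 4967 with GC and length trends removed and 4609 without genes of other tissues. Leaving out each library in turn gave 3731 to 3840 calls, and 646 to 734 of at least 2-fold. The 6 libraries alone gave 5486 calls and a replicate block on them 5392. Deviations of libraries with the same number correlated at 0.028, 0.005 and 0.012, and those with different numbers at -0.023 to 0.01. BSF_C library 2 correlated best with LSF library 3 (0.01). All these values were small, but with 3 libraries per group they cannot exclude a pairing by number. Over 1372 listed or named genes and 21645 gene-by-alternative comparisons, 20620 kept their side of the threshold, 608 lost and 417 gained a call, and 0 changed direction while called. The cause of the lost calls was not tested, beyond the smaller number of libraries in the fits that left one out. Proteasome subunits had 7 higher calls, but 4 with the Wald test, without BSF_C library 1 or without LSF library 2, and nuclear respiratory chain subunits had 12, but 6 with the Wald test. Without LSF library 2 there were 2 higher enteric neuron genes in place of 4 and 0 higher cytosolic ribosomal proteins in place of 3, and without BSF_C library 2 or LSF library 3 there were 0 lower ones in place of 2. Kidney genes had 5 higher calls without BSF_C library 1 and 4 without LSF library 1, in place of 2. The higher count of ketone body genes was 1 in place of 2 without BSF_C library 3, that of lipid absorption genes 1 in place of 2 without BSF_C library 2 or 3 or LSF library 1, and that of proximal genes 1 in place of 2 without any library but BSF_C library 2. The 1 higher distal gene was lost without BSF_C library 1 or 2 or LSF library 3, the 1 higher myeloid gene without BSF_C library 2 or LSF library 2 or 3, the 1 lower tuft cell gene and the 1 lower mitochondrial ribosomal protein without BSF_C library 1 or LSF library 1, and 1 of the 2 lower keratins without LSF library 3.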
